A study of Mus musculus with 10 samples.

Results

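Pseudogene transcripts with listed open reading frames (ORFs) are described here. The deposited table lists 75579 ORFs on 15269 transcripts, and 4026 of these ORFs lie on the 100 transcripts whose gene type in GENCODE M21 contains the word pseudogene. No measured value entered this choice. Of the 100 transcripts, 42 were processed pseudogenes, 24 transcribed processed pseudogenes, 14 transcribed unprocessed pseudogenes, 8 were typed pseudogene without further detail, 7 were polymorphic, 4 transcribed unitary and 1 was unprocessed. The table lists 1 ORF for 45 of them and several ORFs, 3981 in all, for the other 55. Ribosome footprints were sequenced from CGR8 cells, a feeder-independent mouse embryonic stem cell line derived from strain 129. The 4 conditions were no drug (control), 1 µM DMDA-PatA for 10 min, 2 µg/ml harringtonine for 10 min and 0.2 mg/ml puromycin for 20 min, with 2 libraries for each. A further 2 libraries of untreated cells held fragmented whole transcriptome RNA. All 10 libraries come from this 1 cell line with no altered allele, and the study asked which listed ORFs lose their footprints when translation is inhibited.

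Processed pseudogenes are copies of a spliced mRNA that was reverse transcribed and inserted elsewhere in the genome, so they lack introns and stay close in sequence to the coding gene they came from. Unprocessed pseudogenes are duplicated gene copies with their introns, unitary pseudogenes have lost the only functional copy, and a polymorphic pseudogene is intact in some strains and disrupted in the reference strain. A ribosome covers about the length of the short RNA fragment that survives nuclease digestion, and this fragment is what is sequenced as a footprint. DMDA-PatA targets eIF4A, an RNA helicase that initiation needs. Harringtonine holds ribosomes to some extent at start codons while those further along run off, and puromycin ends elongation early by entering the growing chain. The authors describe harringtonine as not specific for starts and saw peaks at other sites too. The authors kept reads with a single match in the genome. Their methods describe that footprints across a splice junction of a coding gene can be placed on an intron-less copy, where the sequence runs on unbroken, and that pseudogenes were left out of their own analysis for that reason. Positions of footprints relative to such junctions are therefore given beside the values.

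The sequences at the starts of some members show what this means. All were read from the GRCm38 reference genome, which comes from strain C57BL/6J, and differences between that strain and CGR8 were not examined. In the lines that follow, capitals mark the bases that the closest coding transcript takes from the exon before a splice junction, and the lower case bases after them come from its next exon. In the pseudogene the stretch is continuous. Each start window holds 15 bases before the ATG, and each aligned base was identical to the coding transcript except 1 in Vdac3-ps1 (T36C, coding base first, counted from the window's 5′ end). In Gm9843 3 bases of the window had no aligned base in Fau.
Gm9843, a copy of Fau, chr16:76403608-76403667, minus strand: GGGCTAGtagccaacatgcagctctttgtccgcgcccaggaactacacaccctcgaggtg
Gm9791, a copy of Carhsp1, chr3:34005419-34005478, minus strand: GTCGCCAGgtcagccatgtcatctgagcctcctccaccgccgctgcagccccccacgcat
Gm4540, a copy of 1810022K09Rik, chr3:106034695-106034754, plus strand: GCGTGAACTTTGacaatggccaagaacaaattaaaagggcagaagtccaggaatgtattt
Gm7334, a copy of Btg3, chr17:50698673-50698732, plus strand: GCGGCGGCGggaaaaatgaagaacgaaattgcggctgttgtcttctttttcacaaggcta
Rpl14-ps1, a copy of Rpl14, from 15 bases before the ATG at listed position 25, chr7:45324950-45325009, plus strand: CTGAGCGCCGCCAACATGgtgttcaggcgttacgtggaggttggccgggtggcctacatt
In these 5 members a junction of the coding transcript lies within the window, after 7, 8, 12, 9 and 18 of its bases, and harringtonine did not lower their footprints. A junction near the start was also present in members that harringtonine lowered, of which the following 2 are shown. Their junctions lie after 13 and 12 bases of the window.
Vdac3-ps1, a copy of Vdac3, chr13:18031549-18031608, minus strand: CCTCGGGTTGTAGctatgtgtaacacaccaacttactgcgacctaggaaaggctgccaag
Ap3m1-ps, a copy of Ap3m1, chr10:82585411-82585470, plus strand: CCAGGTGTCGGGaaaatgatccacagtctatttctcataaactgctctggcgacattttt
The windows at the starts of Rps3a3 and Pcna-ps2 hold no junction and are given for comparison.
Rps3a3, a copy of Rps3a1, chr13:108670588-108670647, plus strand: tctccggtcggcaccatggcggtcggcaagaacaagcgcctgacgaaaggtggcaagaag
Pcna-ps2, a copy of Pcna, chr19:9283364-9283423, plus strand: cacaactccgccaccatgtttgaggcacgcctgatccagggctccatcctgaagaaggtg

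A whole ORF is shown for Gm8186, a copy of Snrpg, which encodes a core protein of the spliceosomal snRNPs. Its 228 bases were identical to the coding sequence of Snrpg. Here capitals mark the bases covered by the 37 of 199 stretches of 30 bases (30-mers) that occur once in the genome. These 30-mers cover 103 bases. The junctions of Snrpg fall after bases 32, 55 and 180 of the ORF, and the first and last of them lie inside the covered bases 6 to 53 and 154 to 208, while the one after base 55 lies outside. The remaining 30-mers occur at several places.
Gm8186, chr17:26098994-26099221, minus strand: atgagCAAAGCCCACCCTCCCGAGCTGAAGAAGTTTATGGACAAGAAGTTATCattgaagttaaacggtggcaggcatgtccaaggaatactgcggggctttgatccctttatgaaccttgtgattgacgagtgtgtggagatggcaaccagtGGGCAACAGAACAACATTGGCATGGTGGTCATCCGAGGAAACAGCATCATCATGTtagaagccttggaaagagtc
The same was computed for every member. The listed ORF could be placed on the genome for 98 members, of which 67 start with ATG, 29 with CTG and 2 with an open frame. A coding transcript of another gene matched 91 members, and 47 of them matched at 98% identity or more, 8 of these at 100%. All 47 matched a transcript of several exons. The match was made with the whole pseudogene transcript, and in 10 of the 89 matched members whose ORF could be placed no base of the ORF itself was in it, among them 2810025M15Rik, Cxcl11, Oas1b, 3110053B16Rik and 2700099C18Rik. Of the 30-mers of a member, a median of 53.2% occurred at several places and a median of 34.8% occurred once in the genome and in no other annotated transcript (97 members). In 9 members no 30-mer was of this last kind, namely Gm9843, Gm9531, Gm4202, Gm8186, Gm5884, Gm7334, Gm10275, Zfp783 and 3110053B16Rik.

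The libraries held 9312375 and 10851485 control reads over all listed ORF rows, 734115 and 891857 DMDA-PatA reads, 2094225 and 1787000 harringtonine reads and 935911 and 1664694 puromycin reads, where nested ORFs count a read more than 1 time. Values below are normalised footprints, which the authors scaled to spike-in RNA, and 1 read was worth between 0.631 and 2.07 of them. All 10 embryonic stem cell markers looked up were present in both transcriptome libraries, from 367 normalised reads for Tdgf1 to 9296 for Pou5f1 in the first of them. Of 10 markers of other cells 9 were listed, and Col1a1, at 132310 and 136630, and T, at 2381 and 2595, were also high, while Sox17 was at 3.08 and 8.44. The part of other cells in the results was not tested. These are bulk libraries, so fewer cells with a transcript and less of it per cell cannot be told apart.

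A few pseudogenes carried most of the footprints. In each member the ORF with most reads over the 8 footprint libraries was taken, and these ORFs ran from 18 to 2709 nt. They held 14416 and 17242 reads in the control libraries, or 0.158% and 0.162% of the reads on the corresponding ORFs of all listed transcripts. A read was present in both control libraries for 83 members and in neither for 10. The leading 5 members held 66.3% of the control reads. Above a mean of 100 normalised control footprints there were 24 members, 36 lay from 10 to 100 and 40 lay below 10. By the class of the coding match, the 16 members that match ribosomal proteins held 55.2% of the mean control footprints, 5 matched proteasome or ubiquitin genes and held 1.62%, and 2 matched RNA-binding and splicing genes and held 5.03%. Gm9843, which held 9.06%, matches the fusion gene Fau and was counted in none of these classes. The 9 members without a coding match held 0.366%.

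Rps4l, whose closest coding relative Rps4x encodes a small ribosomal subunit protein, stood first with 5180 and 4804 normalised control footprints. Its identity to that relative was 79.7%, with 157 substitutions over 786 aligned bases, and 68.3% of its 30-mers occurred in no other place or transcript. Per kilobase of ORF its control footprints numbered 6351 against 157 for Rps4x. Rps3a3, a copy of the small subunit gene Rps3a1 at 98.9% identity, followed with 2150 and 1599. Rps3a1 itself was listed at 0 and 1.81. Rpl14-ps1, a copy of the large subunit gene Rpl14, had 1751 and 1473, and its per kilobase level of 2326 stood beside 1907 for Rpl14. Gm9843 matched Fau, which encodes a ubiquitin-like protein fused to ribosomal protein S30, at 100% and had 1318 and 1637. Its level per kilobase was 3703 against 407 for Fau. No 30-mer of Gm9843 was free of a match at another place or transcript, so its reads cannot be told from those of other transcripts. Pcna-ps2, a copy of the gene of the DNA polymerase clamp, had 961 and 776. Gm7964, a copy of the RNA-binding protein gene Hnrnpk, had 698 and 811, or 543 per kilobase against 719 for Hnrnpk.

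**Figure D1:**
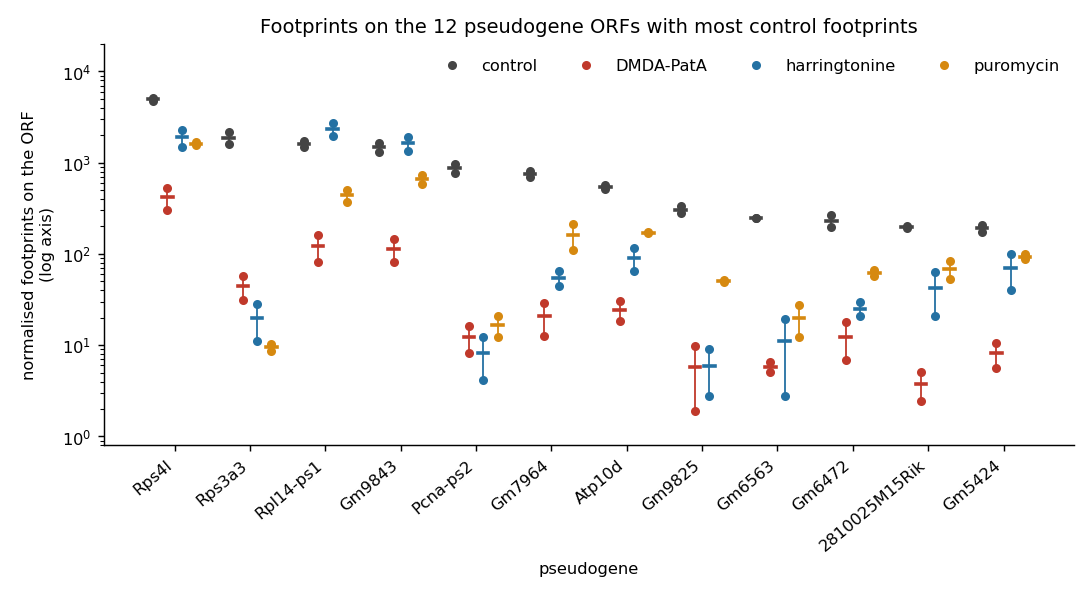
Normalised footprints on the ORF (log axis) for the 12 pseudogenes with most control footprints, with 1 point per library and a bar at the mean of the 2 libraries of each condition. Both DMDA-PatA libraries lie below both controls for each of the 12, whereas the harringtonine libraries of Rpl14-ps1 lie above its controls and those of Gm9843 overlap them.

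Atp10d is a polymorphic pseudogene in the reference annotation and a member of the family of phospholipid-transporting ATPases. Like Rps4l it had no close match among coding transcripts, as its best match Atp10b reached 67.3% identity. Of the 30-mers of Rps4l, however, 31.7% occurred at several places in the genome, beside 0.083% for Atp10d. Atp10d had 575 and 513 control footprints over an ORF of 2448 nt and 23 exons, and 88.3% of its 30-mers occurred in no other place or transcript. A further 215 and 164 control footprints lay after this ORF. The remaining 5 of the leading 12 lay between 172 and 334 in each control library. They were Gm9825 (match Rnps1, a splicing factor gene), Gm6563 (Sarnp, mRNA export), Gm6472 (Rps7, small ribosomal subunit), 2810025M15Rik (Rpl37a, large ribosomal subunit, matched outside the ORF only) and Gm5424 (Ass1, arginine synthesis). Several of the listed coding relatives carried few or no footprints of their own, as seen for Rps3a1. Rpl12 and Rpl11 were listed at 0 in both control libraries, and Rps7 at 10.6 and 10.9. Gm10275 and Gm10036, the members that match Rpl12 and Rpl11, had 31.8 and 31.7 and 16.5 and 17.2. Snrpg was listed at 0 too, beside 75.4 and 56.2 for its copy Gm8186. Reads that match at several places are not in these values.

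Control footprints were high relative to the transcriptome reads on the same ORF. With the transcriptome scaled so that its sum over the listed coding sequences equals that of the control footprints, the 64 members with at least 20 mean transcriptome reads had a median of 1.95 footprints per transcriptome read (1.90 and 1.98 in the same-numbered pairs of libraries). The median of 13161 coding transcripts was 0.873 and that of 61 lincRNAs was 0.350. Within the members the ratio differed at the median between kinds of copy. It was 2.41 at the median for 49 processed pseudogenes and 0.534 for 15 members of other types. It was 2.95 for 41 members with a coding match of at least 98% identity, 92.7% of which lay above 1, and 0.598 for 23 members with a lower or no match, of which 34.8% lay above 1. The highest ratios were those of Gm9144, at 14.5 and 15.1 in the pairs, Vdac3-ps1, at 14.7 and 13.8, and Gm9843, at 9.99 and 14.9. Gm9144 copies Nfyc, a subunit of a CCAAT-binding transcription factor, and Vdac3-ps1 copies a channel gene of the outer mitochondrial membrane. Vdac3-ps1 is the 1 member typed unprocessed, so its high ratio stands in the group of other types. Atp10d had 0.566 and 0.504. These ratios are descriptions without a test, and both terms leave out reads with several matches. The 2 terms come from unlike fragments, as footprints are short nuclease fragments and the transcriptome RNA was fragmented by heat. Whether both kinds of read are placed alike on close copies of spliced transcripts was not tested.

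**Figure D2:**
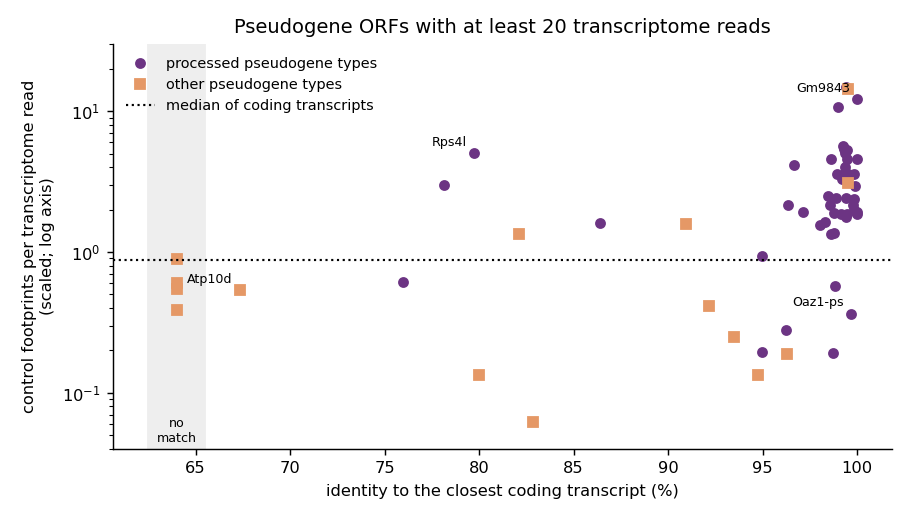
Control footprints per transcriptome read (scaled, log axis) against the identity of the member to its closest coding transcript, for the 64 members with at least 20 transcriptome reads; circles are processed and squares other pseudogene types, and members without a match stand in the grey band. Most members at 98% identity or more lie above the dotted median of coding transcripts at 0.873, and Rps4l lies above it at 79.7% identity.

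DMDA-PatA lowered the footprints of nearly every pseudogene ORF that could be tested. The test needs at least 10 reads in at least 2 of the 8 footprint libraries, and 60 of the 100 members met this, 20 of them through the control libraries alone, whereas 12499 of the 15269 listed transcripts met it. Members that passed through the controls alone had to be lower with drug, so the counts below describe the 60. In edgeR's quasi-likelihood test over all 12499 ORFs with Benjamini-Hochberg adjustment, 58 members were lowered and 0 raised by DMDA-PatA, beside 99.3% lowered and 0.0560% raised among all ORFs tested. None was raised at an unadjusted p of 0.05 either, nor with DESeq2 or limma. Both DMDA-PatA libraries lay below both controls in 58 members (99.5% of all ORFs). The median log2 fold change was -4.53 in the members and -4.32 over all ORFs. Without the first or second control library 40 members met the read minimum, of which 37 and 35 were lowered, beside 98.3% and 98.7% of all ORFs in the same fits.

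Harringtonine lowered 46 of the 60 and raised 4 in the same test, where 92.9% of all ORFs were lowered and 0.512% raised. Both harringtonine libraries lay below both controls in 47 members (95.6% of all ORFs), and without the first or second control library 24 of 40 members were lowered, beside 85.8% and 87.7% of all ORFs. The median log2 fold change was -3.62 in the members and -2.97 over all ORFs, with single members from -7.17 to 2.42. Puromycin lowered 50 and raised 0 in edgeR, also at an unadjusted p of 0.05 and with DESeq2 or limma, beside 90.1% lowered and 0.352% raised of all ORFs, with both libraries below both controls in 53 (95.8% of all ORFs). Its medians were -2.14 and -2.48. Without the first or second control library puromycin lowered 19 and 24 of 40 members, beside 79.8% and 83.2% of all ORFs. These comparisons share their control libraries. All of these changes rest on the scaling to spike-in RNA. Under TMM scaling, which sets most ORFs to no change, the median of all ORFs moved up by 4.20, 2.86 and 2.45 on the log2 scale for the 3 drugs in that order. The members' median relative to that of all ORFs was -0.21, -0.65 and 0.35 with spike-in scaling and -0.21, -0.62 and 0.37 with TMM.

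**Figure D3:**
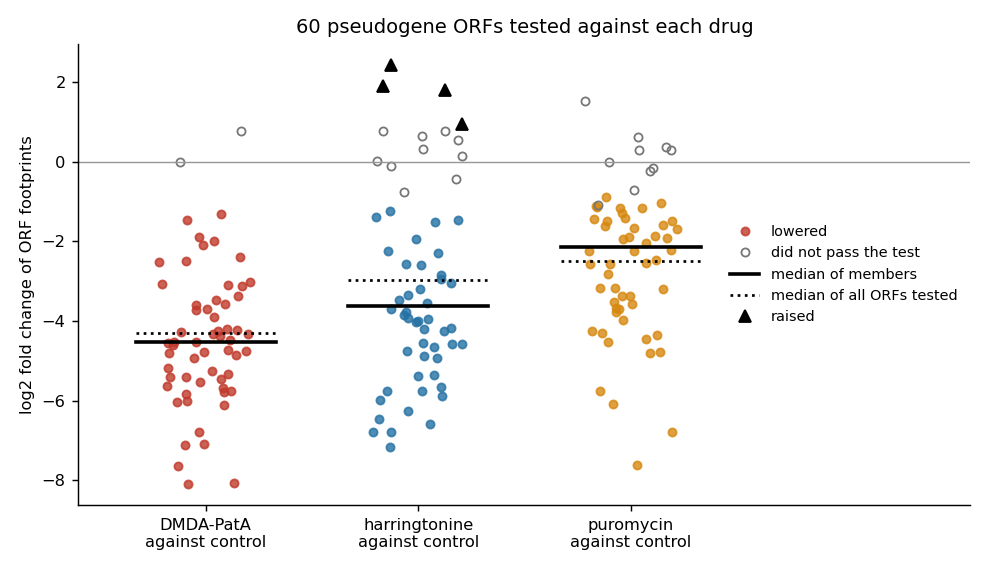
Log2 fold change of ORF footprints against control for each of the 60 tested members, 1 point per member (horizontal scatter only separates points), with solid bars at the members' median and dotted bars at the median of all 12499 ORFs tested. With DMDA-PatA 58 points are filled as lowered, and with harringtonine 4 triangles mark raised members between 0.94 and 2.42.

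As fold inhibition, the mean control value over the mean value with drug, the 72 members with more than 4 mean control footprints had medians of 24.2 with DMDA-PatA, 13.5 under harringtonine and 5.17 under puromycin. Taken within the 2 same-numbered pairs of libraries the medians were 29.4 and 29.1, 13.1 and 12.8, and 6.51 and 4.51, so the DMDA-PatA median of the means lies below both pairs. Over all 13699 listed transcripts with the same minimum the medians were 19.8, 7.63 and 5.48. Summed over the region before the ORF, the ORF and the region after it, 61 members could be tested, and DMDA-PatA lowered 58 and raised 0 (98.0% and 0.264% of all transcripts). Harringtonine lowered 46 and raised 4 (86.1% and 0.909%), and puromycin lowered 47 and raised 1 (84.2% and 0.396%). Over all members 97.6% and 97.8% of control footprints of the transcript lay on the ORF. The shares were 99.6% and 99.5% in the 45 members with 1 listed ORF. In the other 55, where the ORF was chosen by its reads, they were 90.9% and 92.0%. The part before the ORF made up 0.535% and 0.477% in the control, 8.53% and 5.28% under DMDA-PatA and 3.14% and 2.76% under harringtonine. In normalised footprints this part held 93.1 and 76.1 in the control, 70.7 and 72.2 under DMDA-PatA and 283 and 167 under harringtonine. Under DMDA-PatA its share thus rose without a rise in these footprints. Much of this part came from Rps4l and 2810025M15Rik, so it does not describe the members in general. Before the ORF, Rps4l held 14.1 and 21.8 in the control, 22.1 and 24.4 under DMDA-PatA and 166 and 86.1 under harringtonine. For 2810025M15Rik these were 20.0 and 22.7, 25.3 and 24.4, and 62.9 and 35.0.

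The most negative fitted log2 fold changes with DMDA-PatA were those of 3 members with no read left, where the counts give only a bound on the decrease. Rps10-ps1, a copy of a small subunit gene, had 27.1 and 37.2 in the control and 0 in both DMDA-PatA libraries, which at a floor of 3 reads over the group is at least 29.7-fold lower. Gm10275, an exact copy of the large subunit gene Rpl12 over its ORF, went from 31.8 and 31.7 to 0 and 0, at least 29.4-fold lower. No 30-mer of Gm10275 was free of a match at another place or transcript, so its reads cannot be told from those of other transcripts. Gm5611, a copy of the nucleolar chaperone gene Npm1, went from 40.1 and 9.06 to 0 and 0, at least 22.7-fold lower. In all 3 the groups did not overlap. Rps10-ps1, with 23 and 41 control reads, and Gm5611, with 34 and 10, met the read minimum through the control libraries alone and so had to be lower with drug. Among members with reads left, Pcna-ps2 went from 961 and 776 to 16.4 and 8.12, a 70.8-fold decrease. The same Gm10275 was at 26.9 and 29.8 with puromycin, a log2 fold change of -0.15 (SE 0.50, adjusted p = 0.76 in edgeR), although harringtonine left 1.01 and 0. Under TMM scaling the puromycin value of Gm10275 was 2.28.

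At the other end, Zfp783 and 3110053B16Rik were not lowered by DMDA-PatA. Both are transcribed unprocessed pseudogenes whose tested ORF lies in an exon that the annotation also gives to another gene, Zfp956 and Zfp125 respectively, so reads on it cannot be told apart. Zfp783 had 4.72 and 1.81 control footprints, from 4 and 2 reads, and 5.68 and 4.87 after DMDA-PatA. The values of 3110053B16Rik were 11.8 and 12.7 in the control libraries and 9.47 and 15.4 after DMDA-PatA, a log2 fold change of -0.00 (SE 0.51) that is positive under 6 of the alternatives tried. Oas1b, an interferon-induced oligoadenylate synthetase gene that is truncated in the reference strain, fell from 15.3 and 10.9 to 5.05 and 4.06, and 2700099C18Rik from 28.3 and 39 to 2.53 and 26. Their log2 fold changes were -1.47 and -1.31, both past the threshold in edgeR (adjusted p = 0.021 and 0.0095), and under TMM scaling they were 2.74 and 2.79. Leaving out either control library or the second DMDA-PatA library ended the call for Oas1b, with log2 fold changes of -1.22, -1.71 and -1.33. For 2700099C18Rik, leaving out the second control library gave -1.03 and leaving out the first DMDA-PatA library -0.38, neither past the threshold. With DESeq2 both calls were lost (adjusted p = 0.11 for Oas1b and 0.093 for 2700099C18Rik).

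The leading members split under harringtonine. Rps4l fell from 5180 and 4804 to 2310 and 1494, a log2 fold change of -1.39 (SE 0.46, adjusted p = 0.0026 in edgeR), which TMM scaling turns to 1.47. Rps3a3 fell from 2150 and 1599 to 28.4 and 11.2, or 1.06% of its control level, and Pcna-ps2 from 961 and 776 to 12.2 and 4.20, or 0.943%. Rpl14-ps1 was instead at 2710 and 1985 beside 1751 and 1473 in the control, a log2 fold change of 0.54 (SE 0.44, adjusted p = 0.23 in edgeR). Its coding gene Rpl14 went from 1160 and 1323 to 18.3 and 7.00. Gm9843 was at 1924 and 1355 beside 1318 and 1637, so the groups overlapped, and Fau was at 250 and 187 beside 177 and 148.

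Harringtonine raised 4 members in edgeR, and 3 with DESeq2 and 3 with limma, both without Gm4540. In Zfp783, 3110053B16Rik and Gm8186 0% of the 30-mers occurred once in the genome and in no other transcript, and in Gm4540 0.38%. Reads on their other 30-mers match another place or transcript too. Among tested members with no such 30-mer harringtonine lowered 4 and raised 3 of 9. With under 25% of them it lowered 24 and raised 1 of 29, and with 25% or more 17 and 0 of 21. Of all ORFs tested 92.9% were lowered and 0.512% raised. Zfp783 rose from 4.72 and 1.81 to 19.3 and 15.4 (log2 fold change 2.42, SE 0.70, adjusted p = 0.0006 in edgeR). It met the read minimum through the harringtonine libraries alone, with 19 and 22 reads there and at most 9 elsewhere, so its call depends on the group where it is high. The next was 3110053B16Rik, from 11.8 and 12.7 to 55.8 and 36.4 (1.89, SE 0.51, adjusted p = 0.00027 in edgeR). Gm8186, the Snrpg copy printed above, rose from 75.4 and 56.2 to 296 and 160 (1.79, SE 0.44, adjusted p = 5.6e-05 in edgeR). In these 3 every harringtonine library lay above both controls, and without the second control library Zfp783 was at 1.84 and no longer past the threshold. Zfp783 and 3110053B16Rik have several listed ORFs. Their tested ORF was chosen by reads that include the harringtonine libraries, so both calls also depend on this choice. Gm4540 rose from 46.0 and 31.7 to 113 and 37.8 with overlapping groups (0.94, SE 0.45, adjusted p = 0.04 in edgeR). Leaving out either control library, either puromycin library or the first harringtonine library ended the call for Gm4540, with values of 1.23, 0.70, 0.94, 0.94 and -0.02. So did DESeq2 (adjusted p = 0.13), limma (0.15), the replicate block in edgeR (0.082) and exchanged size factors in edgeR (0.079). DMDA-PatA lowered Gm8186 to 4.42 and 4.06 and Gm4540 to 3.16 and 5.68.

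With puromycin the most negative fitted log2 fold changes were those of Rps3a3, from 2150 and 1599 to 10.3 and 8.70 (log2 fold change -7.62, SE 0.63, adjusted p = 1.6e-29 in edgeR), of 6330549D23Rik, which had 15.3 and 10.9 and then 0 and 0 with each of the 3 drugs, and of Gm4202, from 123 and 104 to 2.07 and 1.24. Gm4202 copies the 14-3-3 zeta gene Ywhaz and 6330549D23Rik copies Ints14. For 6330549D23Rik the same floor gives a decrease of at least 5.28-fold, beside the median of 5.17 over members, and its 13 and 12 control reads alone brought it to the read minimum. Pcna-ps2, at 20.7 and 12.4 with puromycin, was 52.4-fold lower than in the control. Among members that moved alike in both same-numbered pairs, the least negative were Zfp783, Mx2 and Gm10275. Without this condition others, such as Gm4540 at 0.29 and 2700099C18Rik at 0.28, also lay above Gm10275. Mx2, an interferon-induced GTPase gene, was at 3.54 and 7.25 in the control and 10.3 and 7.46 with puromycin (0.61, SE 0.77, adjusted p = 0.44 in edgeR). It met the read minimum through the harringtonine libraries alone. Atp10d fell with all 3 drugs, to 18.3 and 30.8 (DMDA-PatA), 116 and 65.8 (harringtonine) and 174 and 169 (puromycin), and its log2 fold changes of -4.48, -2.59 and -1.67 each passed the threshold. Under TMM scaling those for harringtonine and puromycin were 0.25 and 0.78. By gene type, DMDA-PatA lowered all 36 tested processed and all 12 tested transcribed processed pseudogenes (medians -4.74 and -4.83), all 5 polymorphic ones (-1.99), of which Oas1b and Mx2 were not past the threshold with DESeq2, and 3 of 5 transcribed unprocessed ones (-1.31), and these types also differ in their number of footprints.

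Where a transcript has nested ORFs that share a stop codon, the difference between their reads gives the reads between 2 starts, and this shows where on a pseudogene the footprints lie. In Rpl14-ps1 the exon junctions of Rpl14 fall at listed positions 27, 129, 224, 324 and 378. The stretch 25-93, which begins at the ATG shown above, held 923 and 947 control reads, and harringtonine gave 2648 and 2806 there. No read of either condition lay in the 273 nt from 430 to 702, a stretch without a junction, and the transcriptome libraries had 0 and 5 reads there. Between them, stretch 334-360 held 92 and 80 control reads and stretch 376-429 held 191 and 201, where harringtonine left 0 and 0 and 4 and 1. All control reads were in stretches within 30 nt of a junction, and these stretches make up 58.4% of the ORF.

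Gm9144 had its junctions of Nfyc at listed positions 65 and 178 and at 6 further ones. Its stretch 74-151 held 115 and 123 of 166 and 151 control reads, and harringtonine gave 118 and 81 there. In Gm4202 the stretches 292-360 and 361-477 held 30 and 31 and 74 and 83 of its 104 and 115 control reads, around the Ywhaz junctions at 294 and 418, and none lay from 478 to the end. Gm9531, a copy of the histone chaperone gene Set, had all 144 and 197 reads of its tested ORF in stretch 97-270. In another frame a stretch of 12 nt, 255-266, held 111 and 164 reads of this transcript, and the Set junction lies after position 257. The sequence around it, with capitals for the bases before the junction, is given here because these bases carry most of its footprints.
Gm9531, listed positions 249-298, chr9:81678302-81678351, plus strand: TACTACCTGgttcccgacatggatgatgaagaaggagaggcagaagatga
Atp10d differed from these members, as 36 of its 46 stretches held control reads and 18.3% of them were near a position where Atp10b has a junction, beside 40.2% of the length. The stretch with most, 114-272, held 41.1%. Other copies varied. Gm6166, a copy of Fabp5 with 33 control reads, had 0% of them near a junction, beside 44.8% of the length. Gm8399, a copy of Actg1 with 35 reads, had 43.0% beside 43.0%. Gm8935, a copy of Zfp987 with 26 reads, had 100% beside 19.9%. In Gm9144 all control reads were near a junction, but so was 92.6% of its length, so the share says little there.

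**Figure D4:**
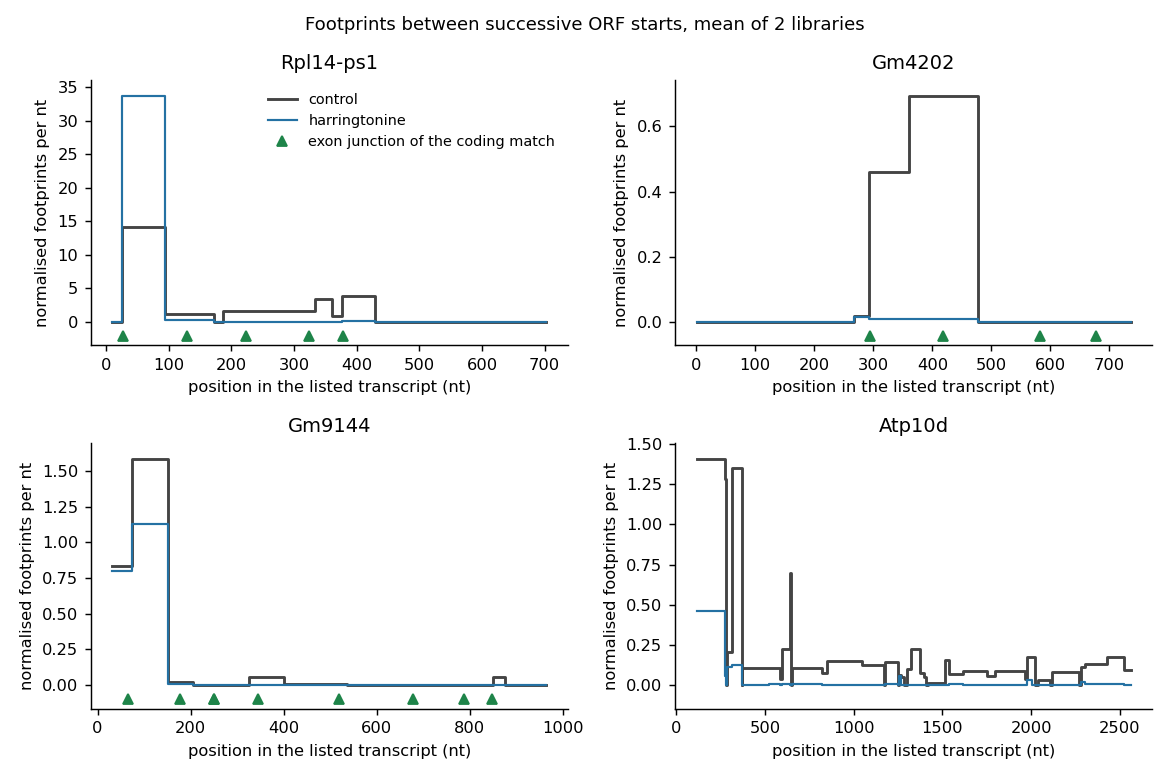
Normalised footprints per nt (mean of 2 libraries) between successive ORF starts along the listed transcript of 4 members, control in grey and harringtonine in blue, with triangles at the exon junctions of the coding match (not drawn for Atp10d). Rpl14-ps1 and Gm9144 peak near the start in both conditions, Gm4202 peaks in 2 inner stretches of the control, and Atp10d has reads along its length.

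The response to harringtonine was also set beside the start codon sequences, a grouping chosen after the values had been seen and given without a test. It covers 38 tested members with a coding match of at least 98% whose ORF lies in no exon of another gene. For each, 7 30-mers over the start were looked up in the genome, and a start counts as found once where at least 4 of them occur once. In 15 members the start was found once, and 6 of these had a log2 fold change above -1 with harringtonine, namely Gm4540 at 0.94, Gm9791 at 0.76, Rpl14-ps1 at 0.54, Gm9843 at 0.15, Gm7334 at 0.01 and Gm9144 at -0.45. In Gm4540, Gm9791, Gm9843 and Gm7334 the 30-mers found once in the genome also occur in another annotated transcript. In Rpl14-ps1 and Gm9144 they occur in no other transcript. Both kinds were also present among members that harringtonine lowered, as in Gm5900 and Cd63-ps respectively. For Rpl14-ps1 the start looked up was the CTG at listed position 10, not the ATG printed above. The median of the 15 was -3.55. In the other 23 members it was -4.19, with 2 above -1, Gm8186 at 1.79 and Oaz1-ps at -0.77. The medians with puromycin were -1.58 and -3.39, and with DMDA-PatA -4.74 and -4.85. Gm9791 copies the RNA-binding protein gene Carhsp1, and its values were 120 and 94.3 in the control and 212 and 150 with harringtonine. Gm7334 copies the antiproliferative gene Btg3 and was at 48.3 and 33.5 in the control and 49.7 and 32.9 with harringtonine. Of the 15, 10 have a junction of the coding gene within 30 nt of the start of the tested ORF. Harringtonine gave log2 fold changes above -1 in 5 of these 10, the first 5 windows printed at the beginning, and lowered the other 5, Ap3m1-ps at -4.76, Vdac3-ps1 at -4.57, Cd63-ps at -4.24, Gm5900 at -3.55 and Gm5424 at -1.46. Over all tested members with a match of at least 98%, harringtonine lowered 13 and raised 1 of the 18 with a junction within 30 nt (median -3.51). It lowered 19 and raised 2 of the 23 without (median -4.54), beside 92.9% lowered and 0.512% raised of all ORFs. These 2 were Gm8186, with a junction after base 32 of its ORF, and Zfp783, whose ORF lies in an exon of another gene. Gm9144, with a junction after base 34, also counts as without, so the split depends on members near the limit of 30 nt. Whether the reads came from the pseudogene or from its coding gene was not tested. In the 9 members with no 30-mer found once and in no other transcript, among them Gm9843, Gm7334 and Gm8186, the sequence cannot tell this.

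**Figure D5:**
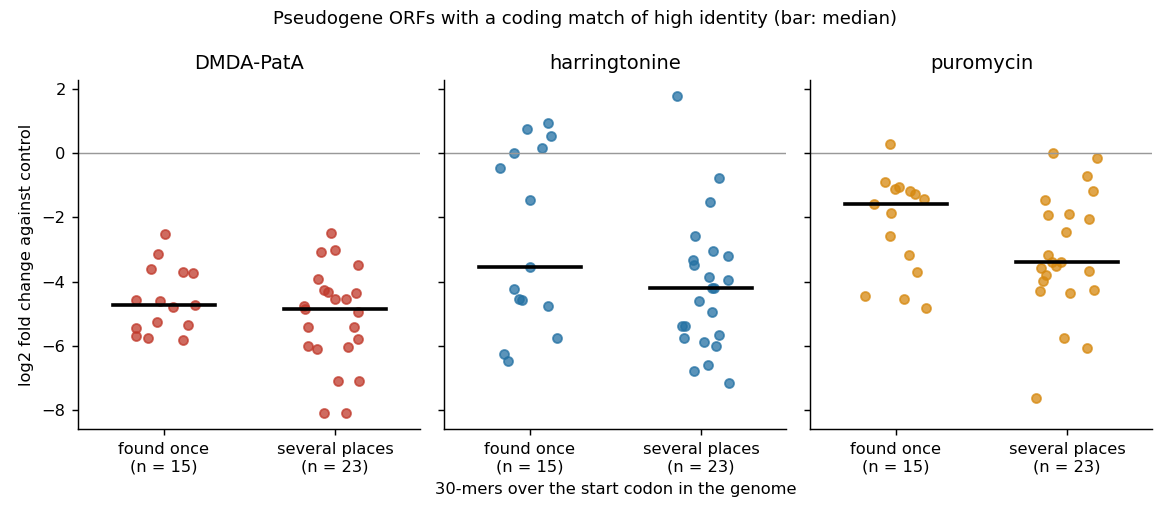
Log2 fold change against control for the 38 tested members with a close coding match, split by whether the 30-mers over the start codon occur once in the genome (15 members) or at several places (23 members), with 1 point per member and a bar at the median. With harringtonine 6 of the 15 and 2 of the 23 points lie above -1, and with DMDA-PatA none does.

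For 38 members the closest coding gene could be tested as well, and in 3 of these, Cxcl11, Oas1b and 2700099C18Rik, no base of the tested ORF is in the match. In the other 35 the member's log2 fold change minus that of its coding gene had medians of -0.02 (DMDA-PatA), -0.28 (harringtonine) and 0.09 (puromycin), and the 2 values were within 1 of each other in 14, 6 and 10 of the pairs. Quartiles of the difference ran from -1.43 to 1.09 for DMDA-PatA and from -2.69 to 3.33 for harringtonine. With the 3 others the medians were 0.18, 0.50 and 0.16. As an example, DMDA-PatA gave -5.19 for Gm7964, whose ORF was not placed, and -6.45 for Hnrnpk.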

How the data were processed

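Samples were grouped by GEO's labels. The authors aligned SOLiD reads to mm10, dropped reads with several matches, kept matches of footprint length and deposited counts normalised to spike-in reads (footprints) or size factors (transcriptome), a signal value per region (Picard 1.38 is named in the submitters' notes). Divided by what 1 read is worth, 100% of deposited values above 0 came out whole (tolerance 0.01), and these reads were tested with edgeR 4.0.16 on the authors' size factors. The normalised unit would call for limma on log2(value + 1), which was an alternative, as was DESeq2 1.42.0 (R 4.3.3, limma 3.58.1). Missing values before an ORF were taken as 0. Matches used blastn 2.17.0 with at least 100 aligned bases, and 30-mers were looked up in GRCm38. Python 3.11.15 did the rest. The fit was tested on simulated counts. Named members are the 12 with most control footprints, the 3 most and 3 least negative per drug that moved alike in both same-numbered pairs, and those raised. Gm9144, Gm9791, Gm7334, Gm9531, Vdac3-ps1, Oaz1-ps, Ap3m1-ps, Cd63-ps, Gm5900, Cxcl11, Gm6166, Gm8399 and Gm8935 were named after their values were seen. Members and lists were chosen with earlier results of these data known. The authors call the 2 libraries of a condition biological replicates and do not say whether these were separate cultures. The p-values therefore measure the spread between libraries, and read numbers carry counting error only. Start codon and snoRNA tables were not used here.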

Additional observations from a re-analysis of the deposited data

How the results depend on the processing

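The spike-in scaling carries the directions. With TMM factors the members lowered and raised were 12 and 10 for DMDA-PatA, 21 and 18 for harringtonine and 10 and 21 for puromycin over ORFs, and 19 and 9, 30 and 19, and 17 and 19 over entire transcripts. The median of all ORFs under TMM was -0.12, -0.12 and -0.04. Shares called among all features are not given for these fits, so the counts are not set against them. With equal read totals the median fold inhibition was 1.14, 1.99 and, below 1, 0.890. With the DMDA-PatA and harringtonine size factors exchanged it was 19.2 and 15.8, and with more than 20 control footprints 26.4 and 12.4. Single pairs of libraries gave 29.1 to 29.4 for DMDA-PatA, 12.8 to 13.1 for harringtonine and 4.51 to 6.51 for puromycin.

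Leaving out 1 library gave 35 to 58 members lowered by DMDA-PatA, 24 to 47 lowered and 2 to 5 raised by harringtonine and 19 to 50 lowered by puromycin over ORFs, and 35 to 58 for DMDA-PatA, 24 to 47 and 1 to 5 for harringtonine and 19 to 48 and 0 to 1 for puromycin over entire transcripts. Among all ORFs in these fits 98.3% to 99.5% were lowered by DMDA-PatA and 79.8% to 92.8% by puromycin. Harringtonine lowered 85.8% to 95.7% and raised 0.175% to 0.914% of them. Shares over all entire transcripts are not given here. The lowest counts come from leaving out a control library, when 20 members lowered by each drug no longer meet the read minimum. Without the first or second control, 1 and 3 calls for DMDA-PatA, 2 and 2 for harringtonine and 11 and 6 for puromycin were lost among the 40 still tested. The longest listed ORF left 2 raised by harringtonine. Raised by puromycin were 2 ORFs and 3 entire transcripts without the filter, and 0 entire transcripts with DESeq2, limma, the replicate block or without members in exons of other genes. Footprints per transcriptome read rose to 2.15 at 100 transcriptome reads, a setting chosen after seeing the data.

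Same-numbered libraries deviated together at correlations of -0.0187 to 0.16 over 6842 ORFs, so the numbers do not pair the samples. With the replicate block 57, 46 and 46 member ORFs were lowered, and the share of all ORFs in that fit is not given here.

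Under TMM the log2 fold changes that turned positive were, for DMDA-PatA, Rps4l 0.61, Rpl14-ps1 0.45, Gm9843 0.48, Oas1b 2.74, 2700099C18Rik 2.79, Gm8186 0.32, 3110053B16Rik 4.18, Gm4540 1.08 and Mx2 2.19. For harringtonine they were Rps4l 1.47, Atp10d 0.25, 2810025M15Rik 0.53 and Gm5424 1.32. For puromycin they were Rps4l 0.83, Rpl14-ps1 0.59, Gm9843 1.28, Gm7964 0.25, Atp10d 0.78, Gm6472 0.50, 2810025M15Rik 0.99, Gm5424 1.39, Gm10275 2.28, Oas1b 0.71 and Gm8186 1.04. With exchanged size factors Gm9843, harringtonine against control, was at -0.10 and 3110053B16Rik at 0.20 with DMDA-PatA, where DESeq2 gave 0.011, the replicate block 0.0015 and leaving out a library -0.37 to 0.33. Leaving out a library gave -0.13 to 0.38 for Gm9843 and -0.023 to 1.55 for Gm4540 with harringtonine and -0.066 to 0.61 for 2700099C18Rik with puromycin. Beyond TMM the cause of these turns was not tested. Of the remaining values of single members 1034 kept direction and call, 52 lost and 12 gained the call. With 2 libraries per condition and 40 members under 10 control footprints, small differences were not detectable.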
